A study of Oryctolagus cuniculus with 6 samples.

Results

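Macrophage scavenger and pattern receptor genes were followed in healing tissue of rabbit skull defects. The set holds 5 genes: MSR1, CD36 and MARCO, which encode scavenger receptors, CD14, which encodes a co-receptor for bacterial lipopolysaccharide, and CHIT1, which encodes the chitinase made by activated macrophages. They were chosen with earlier results of these data known, so their counts beside those of all features are descriptive. Their probes were found on the array by accession for 4 genes and by gene ID for MARCO. They are 5 of 23273 features on the array, and all 5 were among the 20136 features tested. The tissue came from male New Zealand White rabbits aged 4 months, each with 4 round holes 5 mm wide in the parietal bone. In the HPD groups the holes on the right were packed with 0.2 g of HPD, named in the series title as human particulated dentin. In the control groups the holes of the same 24 rabbits were left empty. Newly formed tissue was taken on day 3, 5 or 7, and 1 array was run per treatment and day, giving 6 arrays. Whether an array stands for 1 rabbit or for RNA combined from several is not given in the labels, and no array was repeated.

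Scavenger receptors bind modified lipoproteins, dying cells, microbial surfaces and foreign particles, and pass them into the cell. MSR1 and MARCO are class A receptors built as trimers with a collagen-like stalk, and CD36 is a class B receptor that also takes up long-chain fatty acids. CD14 has no signalling domain of its own and hands lipopolysaccharide to TLR4 and its partner LY96. CHIT1 is secreted and cleaves chitin, and it is known in human disease as a marker of lipid-loaded macrophages.

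Each gene was read from the brightest of its probes, and the 60-base probe sequences of 4 of the genes are shown because their values below rest on them. The array held 2 probes for MSR1, 3 for CD36 and 1 each for MARCO, CD14 and CHIT1. Coordinates are on oryCun2 as the files give them, the sequences run 5′ to 3′, and no base is capitalised because no single part of a probe is singled out. The MSR1 probe A_04_P075392 lies at chr2:69778518-69778577 on the plus strand. The CD36 probe A_04_P014012 lies at chr7:35304652-35304711 on the minus strand, and the MARCO probe A_04_P051142 at chr7:63885395-63885454, also on the minus strand. The CHIT1 probe A_04_P068212 is listed at chr16:68566959-68568785 on the plus strand, so its 60 bases are spread over 1827 genomic bases and cross at least 1 intron. The files give no exon or UTR annotation for these positions.
MSR1: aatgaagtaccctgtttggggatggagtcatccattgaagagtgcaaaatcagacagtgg
CD36: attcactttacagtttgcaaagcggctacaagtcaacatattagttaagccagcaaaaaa
MARCO: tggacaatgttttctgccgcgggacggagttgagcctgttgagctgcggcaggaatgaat
CHIT1: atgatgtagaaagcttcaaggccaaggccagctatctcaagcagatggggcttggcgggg

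All levels are log2 of the processed spot intensity minus the 75th percentile of that array, so 0 is the brightness of that percentile. A difference is given on the log2 scale as HPD minus control, or as the later day minus the earlier one. Standard errors (SE) and p-values come from a limma model of all 6 arrays, in which day and treatment add up. A residual SD is the spread left by that model for a gene, drawn by limma toward the spread typical of all features. It can thus be smaller or larger than the spread of that gene alone. With 1 array per treatment and day, the gene's own part holds how much the HPD difference varied between days. A residual SD is no separate measure of noise between arrays. All 5 probes were well above background on all 6 arrays. Between 78.1% and 86.4% of spots were well above background per array, and 0 spots were saturated. Both day 3 arrays shared 1 slide and the day 5 and day 7 arrays a second one, so each HPD minus control difference lies within a slide, as does day 7 minus day 5. Differences from day 3 cannot be told apart from the slide. Because a level belongs to its own probe, levels are compared between arrays and not between genes.

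MSR1, the class A scavenger receptor that takes up modified lipoproteins, was higher with HPD on every day. Its level was 1.45, 0.97 and 0.13 in HPD tissue on days 3, 5 and 7, against 0.29, -0.56 and -0.26 in control tissue. The difference was 2.22-fold on day 3, 2.89-fold on day 5 and 1.31-fold on day 7. In order of level, HPD of day 3 and day 5 stood highest and control of day 5 lowest. Neighbours in that order that lay within the residual SD of 0.32 were control of day 3 with HPD of day 7, and control of day 7 with control of day 5. The mean HPD minus control difference was 1.02 ± 0.26 (SE, 6 arrays), larger than in all but 1.24% of the features tested, with a limma adjusted p of 0.557.

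CD36, the fatty acid and oxidised lipoprotein receptor, was also higher with HPD on every day. Its level was 3.30, 2.41 and 2.43 in HPD tissue on days 3, 5 and 7, against 2.48, 1.57 and 1.95 in control tissue. The HPD arrays of days 5 and 7 stood at nearly the level of the control array of day 3, within the residual SD of 0.18, and the other neighbours in the order lay further apart than that. With HPD it stood 1.77-fold above control on day 3, 1.79-fold on day 5 and 1.39-fold on day 7. The mean difference was 0.72 ± 0.15 (SE, 6 arrays), with a limma adjusted p of 0.557.

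MARCO, the class A receptor known for binding bacteria and inhaled particles in macrophages of lung and lymphoid tissue, was higher with HPD by more than its residual SD on day 5 alone. Its level was 1.30, -0.18 and -2.27 in HPD tissue on days 3, 5 and 7, against 1.30, -1.23 and -2.37 in control tissue. Both treatments had the same level on day 3, and on day 7 they lay within the residual SD of 0.32. On day 5 MARCO was 2.07-fold higher with HPD. The mean difference was 0.38 ± 0.26 (SE, 6 arrays), with a limma adjusted p of 0.603, and it was 0.05 without the day 5 arrays. On days 3 and 7 the sign of the MARCO difference turned with the scaling: it was 0.04 on day 3 with quantile normalization, and -0.0030 on day 7 when arrays were shifted by their median.

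CD14, the lipopolysaccharide co-receptor, was higher with HPD on every day and highest on day 3. The level of CD14 was 4.73, 4.41 and 3.82 in HPD tissue on days 3, 5 and 7, against 4.10, 3.25 and 3.24 in control tissue. Control tissue of days 5 and 7 had levels within the residual SD of 0.22 of each other, and every other pair of neighbours was further apart. The difference was 1.56-fold on day 3, 2.23-fold on day 5 and 1.50-fold on day 7. The mean difference was 0.79 ± 0.18 (SE, 6 arrays), with a limma adjusted p of 0.557.

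CHIT1, the secreted macrophage chitinase, stood slightly lower with HPD on day 3 and higher on both later days. Its level was 1.25, 0.67 and -0.81 in HPD tissue on days 3, 5 and 7, against 1.40, -0.79 and -2.00 in control tissue. The HPD array of day 7 had about the level of the control array of day 5, and the day 3 arrays of both treatments also lay within the residual SD of 0.44. CHIT1 was 0.899-fold, 2.74-fold and 2.28-fold its control level with HPD on the 3 days. The mean difference was 0.83 ± 0.36 (SE, 6 arrays), with a limma adjusted p of 0.557, and it was 1.32 without the day 3 arrays.

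**Figure D1:**
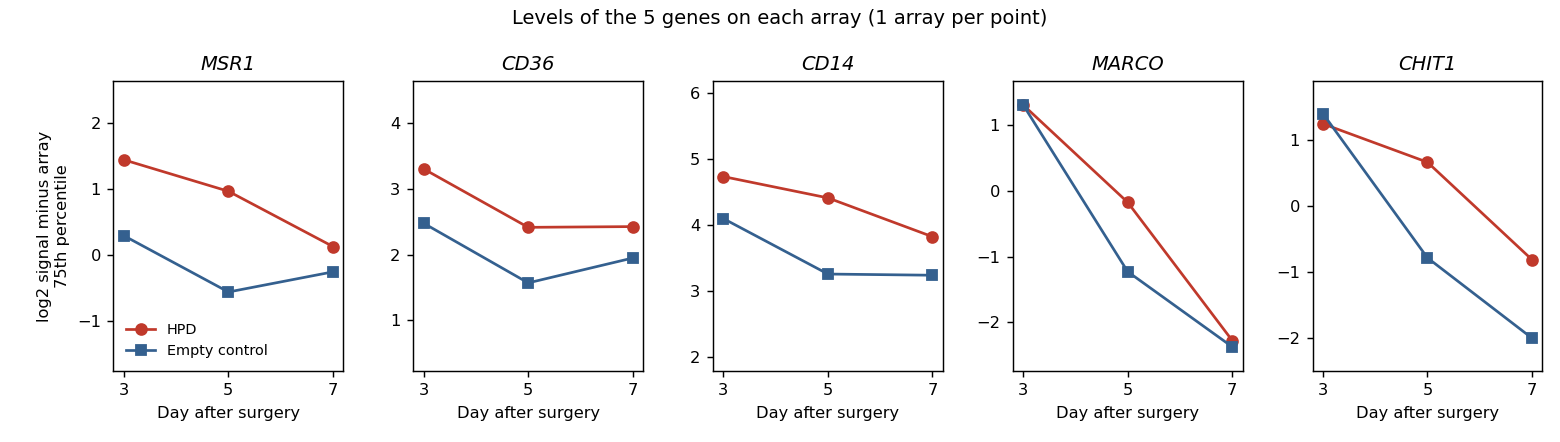
Levels of the 5 genes on each of the 6 arrays against the day, with HPD as red circles and the empty control as blue squares. The y axis is log2 signal minus the array's 75th percentile, with the same span in every panel. MSR1, CD36 and CD14 lie higher with HPD on all 3 days, MARCO on day 5 above all, and CHIT1 on days 5 and 7.

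Counted by size, 1 of the 5 genes was at least 2-fold higher with HPD on day 3 (MSR1), where 3.59% of all features measured on both arrays were. On day 5 the count was 4 of 5, all but CD36, against 4.89% of features, and on day 7 it was 1 of 5 (CHIT1), against 1.61%. None of the 5 was 2-fold lower on any day, while 2.91%, 1.68% and 0.854% of features were on days 3, 5 and 7. MSR1, CD36 and CD14 were higher with HPD on all 3 days, as were 27.6% of features. The median difference of all features was 0.13, 0.10 and 0.08 on the 3 days, so the whole set of features stood slightly above 0 at this scaling. With 1 array per treatment on each day these differences have no test.

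**Figure D2:**
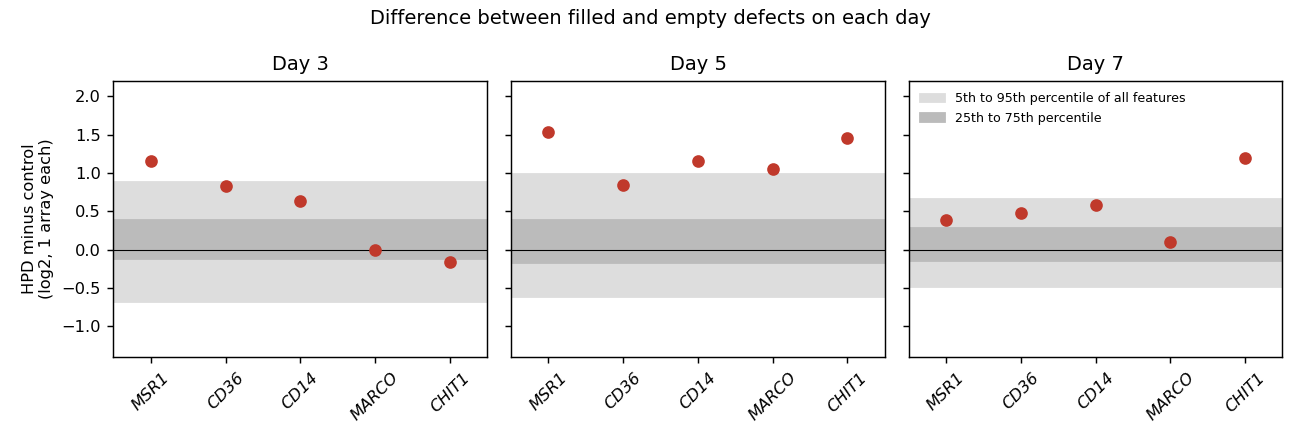
HPD minus control (log2) of the 5 genes on days 3, 5 and 7, 1 array per treatment, over bands that span the 5th to 95th percentiles (light) and the interquartile range (dark) of all features measured on both arrays. On day 5, 4 of the 5 genes lie above the 95th percentile of 0.99, and on day 7 only CHIT1 lies above that of 0.66.

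None of the 5 genes passed the test of the HPD effect in limma, nor did any of the 20136 features (0.0% called), the smallest adjusted p being 0.557. At an unadjusted p under 0.05, 3 of the 5 were higher (MSR1, CD36 and CD14), against 7.1% of all features, and 0 were lower, against 1.41%. The median estimate of the 5 was 0.79, beside 0.09 for all features, and it was 0.66 beside -0.04 when arrays were shifted by their median. Among all features the split at an unadjusted p under 0.05 was 1430 higher and 283 lower, and the same shift gave 629 higher and 1057 lower. The members at that level were 3 of 5 with either scaling and 4 with normexp background correction. They were 2 without the day 5 arrays and 1 when day was left out of the model.

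The probes not used gave similar differences for the 2 genes with more than 1 probe. The second MSR1 probe, A_04_P001231, gave HPD minus control differences of 1.04, 1.26 and 0.16 on days 3, 5 and 7. For CD36, A_04_P014011 gave 0.73, 0.92 and 0.44, and A_04_P014013 gave 0.79, 0.95 and 0.47. The largest gap between probes of a gene was that of MSR1 on day 5, and no probe differed in sign from the one used. Both unused CD36 probes are listed over 895 and 1352 genomic bases, so each crosses at least 1 intron.

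**Figure D3:**
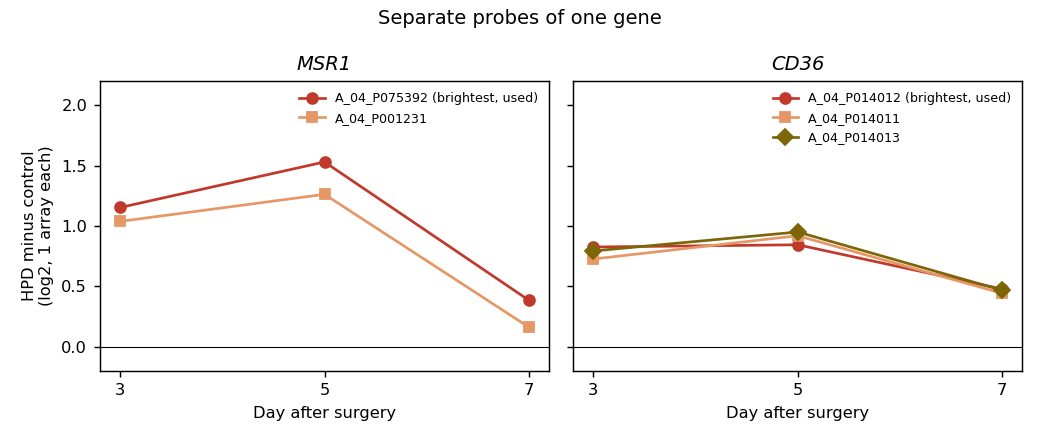
HPD minus control (log2, 1 array per treatment) on days 3, 5 and 7 for each probe of MSR1 and CD36, with the brightest probe in red. The lines of the 3 CD36 probes nearly coincide, and both MSR1 probes are highest on day 5 and lowest on day 7.

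Across days, MARCO and CHIT1 were lower by far the most. MARCO was 11.9-fold lower on day 7 than on day 3 in HPD tissue and 12.7-fold lower in control tissue. CHIT1 was 4.18-fold lower in HPD tissue and 10.6-fold lower in control tissue. On day 7 the MARCO intensity was 67.9 with HPD and 59.8 in control, near the array medians of 73.6 and 64.7. The size of these differences varied with background correction. Over both treatments, day 7 minus day 3 was -3.62 for MARCO and -2.74 for CHIT1, but -2.82 and -2.18 with normexp. Over these days 3 of the 5 genes were at least 2-fold lower in HPD tissue (MARCO, CHIT1 and MSR1), against 4.58% of features, and 2 of the 5 in control tissue (MARCO and CHIT1), against 5.68%. The path of CHIT1 also differed between treatments: by day 5 it had moved by -0.58 in HPD tissue and by -2.19 in control tissue, while from day 5 to day 7 the shifts were -1.48 and -1.22. MARCO moved by -1.48 in HPD tissue and -2.53 in control tissue to day 5, and then by -2.10 and -1.14. Control tissue thus showed the larger part of both differences by day 5, and HPD tissue more of them after it. With 1 array per point this contrast between treatments could not be tested.

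MSR1, CD36 and CD14 differed less between days. On day 7 they were 2.49-fold, 1.83-fold and 1.88-fold lower than on day 3 in HPD tissue, and 1.46-fold, 1.44-fold and 1.81-fold lower in control tissue. Between days 5 and 7 MSR1 moved by -0.84 in HPD tissue and by 0.31 in control tissue. CD36 moved by 0.01 in HPD tissue and 0.38 in control tissue over the same days, and CD14 by -0.59 and -0.02. The treatments lay closer together on day 7 than on day 5 for these 3 genes.

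All 5 genes were highest on day 3 within each treatment, as were 24.2% of the 18064 features measured on all 6 arrays. MARCO, CHIT1 and CD14 were lower on each later day in both treatments (3 of 5), against 6.54% of features. CD14 counts by a step of only -0.02 in control tissue, and the count was 2 of 5 with normexp background correction or quantile normalization. Over both treatments, day 7 minus day 3 was -3.62 ± 0.32 for MARCO, -2.74 ± 0.44 for CHIT1 and -0.93 ± 0.32 for MSR1 (SE, 6 arrays). It was -0.89 ± 0.22 for CD14 and -0.70 ± 0.18 for CD36, and the median of the 5 was -0.93 beside -0.01 for all features. At this contrast 0 of the 5 passed the limma test, with adjusted p from 0.118 to 0.217, and 1 of the 20136 features did (0.00497%). At an unadjusted p under 0.05, 5 of 5 were lower, against 10.1% of features. That count was 2 without the HPD array of day 7, 3 without either day 3 array and 2 without the treatment term.

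The call on day 7 minus day 3 depended on the processing. With normexp background correction, which called 932 features, MARCO (-2.82, limma adjusted p = 0.00689), CHIT1 (-2.18, 0.017) and CD36 (-0.89, 0.0398) passed. Without the treatment term MARCO passed (adjusted p = 0.0295), and without the HPD array of day 3 CHIT1 did (-3.47, adjusted p = 0.0318).

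Both steps between days were read in the same model. Day 5 minus day 3 was -2.00 ± 0.32 for MARCO, -1.39 ± 0.44 for CHIT1, -0.90 ± 0.18 for CD36, -0.67 ± 0.32 for MSR1 and -0.58 ± 0.22 for CD14. Here 0 of 5 passed the limma test, beside 0.00497% of features, and at an unadjusted p under 0.05, 4 were lower (all but MSR1), against 10.1% of features. This count was 2 without the control array of day 3, without that of day 5 or without the treatment term. Within the second slide, day 7 minus day 5 was -1.62 ± 0.32 for MARCO and -1.35 ± 0.44 for CHIT1. It was -0.30 ± 0.22 for CD14, -0.27 ± 0.32 for MSR1 and 0.19 ± 0.18 for CD36. None of the 5 passed at this contrast (0.0% of features did), and 2 were lower at an unadjusted p under 0.05, against 3.31%. This became 1 without either day 7 array, without the HPD array of day 5 or without the treatment term.

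In their levels over the 6 arrays MSR1, CD14 and CD36 were alike, and so were MARCO and CHIT1. The Pearson r was 0.97 for MSR1 with CD14, 0.92 for MSR1 with CD36 and 0.91 for CD36 with CD14. It was 0.95 for MARCO with CHIT1, 0.86 for CD14 with CHIT1, and from 0.65 to 0.77 for the other pairs. These values describe 6 points that share days and slides, and every gene named next had a higher r than any pair of members. The nearest genes were sought among 2452 named genes well above background on all 6 arrays, with a range of at least 1 log2 unit. The 3 nearest to MSR1 were MCL1, a survival factor of the BCL2 family (r = 0.997), the myeloid lectin receptor gene CLEC5A (0.989) and PTBP3 (0.988). CLEC5A was also nearest to CD14 (0.991), followed by the metallothionein gene MT3 (0.990) and IL1RN, which encodes the interleukin-1 receptor antagonist (0.984). Nearest to CD36 were LONRF3 (0.995), the collagen gene COL8A2 (0.994) and YARS1 (0.994). The nearest to MARCO were ANLN, a gene of cell division (0.996), TNFAIP8L2 (0.995) and PARPBP (0.993), and the nearest to CHIT1 were the leukocyte integrin gene ITGB2 (0.993), ESM1 (0.993) and the hexokinase gene HK1 (0.991).

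No other scavenger or uptake receptor tested had an HPD estimate as high as MSR1 or CD36, while several stood above MARCO (0.38). Of 20 listed, 10 were on the array by name and tested, and 9 of these had an HPD estimate above 0, as did 62.7% of all features. Their median was 0.38 beside 0.09 for all features. At an unadjusted p under 0.05, 1 of the 10 was higher, against 7.1% of all features. It was CD68 (0.50 ± 0.15), which encodes a lysosomal glycoprotein of macrophages. The estimate was 0.56 ± 0.25 for OLR1, an oxidised lipoprotein receptor well above background on 4 of 6 arrays, and 0.51 ± 0.24 for MERTK, a receptor for dying cells. The exception was SCARB1, the lipoprotein receptor of the CD36 family, at -0.54 ± 0.32. With normexp background correction the median of this list was 0.06, beside -0.0013 for all features.

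The partners of CD14 differed among themselves. TLR4, the signalling receptor for lipopolysaccharide, was 0.55, 1.06 and 0.06 higher with HPD on days 3, 5 and 7, an estimate of 0.55 ± 0.23. LY96, which binds the lipid for TLR4 and is named here for that role, was -0.11, 0.22 and -0.44, an estimate of -0.11 ± 0.18. Over the pattern receptor list, 17 of 29 were tested and 11 were above 0 (62.7% of all features were). The median was 0.13, beside 0.09 for all features. When arrays were shifted by their median it became -0.01, beside -0.04 for all features, since that shift moves every HPD estimate by the same amount. CLEC4E, a lectin receptor for mycobacterial glycolipid and dead cells, stood at 0.99 ± 0.28 and LY86 at 0.50 ± 0.16. These were the 2 of 17 higher at an unadjusted p under 0.05, against 7.1% of all features. FPR2, a formyl peptide receptor gene, had 1.30 ± 0.51 but was well above background on only 3 of 6 arrays.

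Among genes that carry the TLR signal, 12 of 23 were tested, 11 had an HPD estimate above 0, against 62.7% of all features. Of these 4 were higher at an unadjusted p under 0.05, against 7.1%, and the median was 0.33, or 0.17 with normexp background correction. The kinase gene IKBKB stood highest, with differences of 0.82, 0.72 and 0.63 on days 3, 5 and 7 and an estimate of 0.73 ± 0.13. NFKBIZ had 0.58 ± 0.23 but was not among those 4. The others among them were TAB2 (0.49 ± 0.14), the NF-kappaB inhibitor gene NFKBIA (0.43 ± 0.15) and, named to complete that count, NFKB2 (0.40 ± 0.13). The adaptor gene MYD88, named for its role in that signal, had 0.08 ± 0.16. In the lipid handling list, 15 of 20 were tested, 9 were above 0, a share below the 62.7% of all features, and the median was 0.18. It became 0.06 with normexp background correction, 0.05 with quantile normalization and 0.05 when arrays were shifted by their median. The medians of all features were -0.0013, 0.03 and -0.04 under these scalings, beside 0.09 in the main one. The lipase gene LPL (1.48 ± 0.13) and PLIN2, which coats lipid droplets (0.85 ± 0.28), passed an unadjusted p under 0.05. They were the 2 of 15 that were higher at that level, against 7.1% of all features. DGAT2 had 0.62 ± 0.29 and FABP5 0.53 ± 0.26. Of the 6 listed chitinase relatives, OVGP1 (0.35 ± 0.15) and CTBS (0.01 ± 0.18) were tested, and CHI3L2 was well above background on 0 of 6 arrays. No gene of these lists passed the limma test of the HPD effect after adjustment.

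From day 3 to day 7 the companion lists had medians of -0.19 for scavenger receptors, -0.24 for pattern receptors, -0.18 for TLR signalling and -0.47 for lipid handling. With normexp background correction these were -0.05, -0.08, 0.10 and -0.11, beside 0.17 for all features. No size is given for OLR1 and FPR2, which were well above background on only 4 and 3 of the 6 arrays. Among other scavenger receptors MERTK, well above background on 5 arrays, had -1.25 ± 0.30 and the mannose receptor gene MRC1 -0.66 ± 0.34. Among other pattern receptors the formyl peptide receptor gene FPR1 had -2.84 ± 0.68. TLR10, also well above background on 5 arrays, had -2.02 ± 0.58 and LY86 -1.48 ± 0.19. In the lipid list FABP4 had -2.47 ± 0.26, PLIN2 -2.04 ± 0.34 and PPARG -1.78 ± 0.18. For TLR signalling, IRAK3 had -0.94 ± 0.23 and MYD88 -0.58 ± 0.20.

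**Figure D4:**
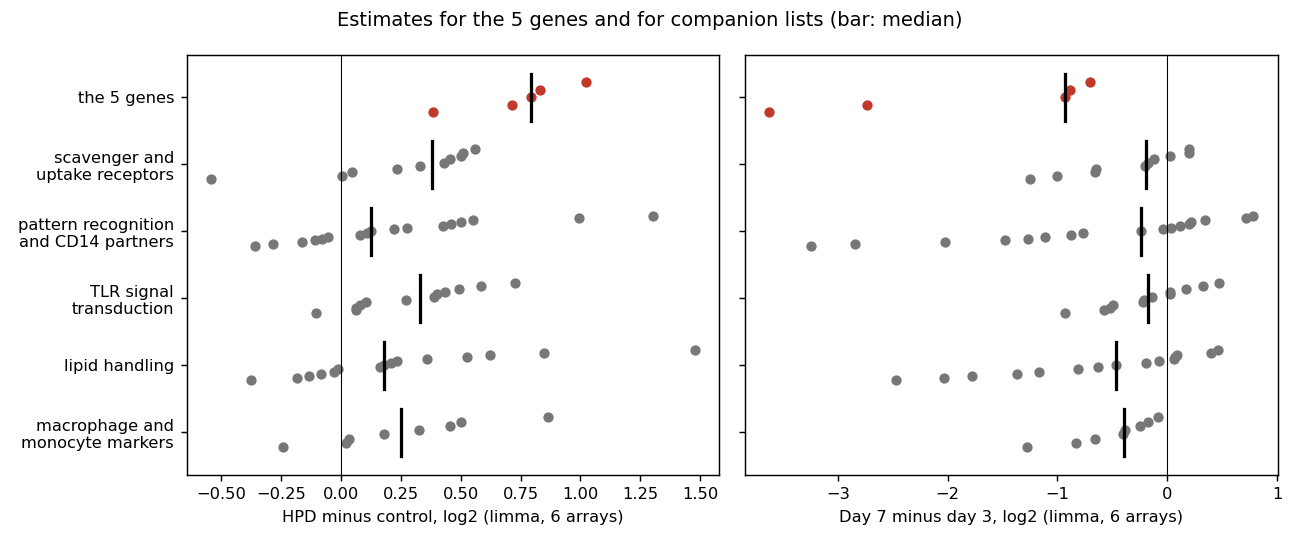
Limma estimates over 6 arrays for the 5 genes (red) and for the genes of 4 companion lists and the macrophage marker list (grey), as HPD minus control on the left and day 7 minus day 3 on the right, in log2 units, with a black bar at each median. The 5 genes lie at 0.38 to 1.02 on the left, and MARCO and CHIT1 stand apart at -3.62 and -2.74 on the right.

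The tissue is bulk, so fewer cells of a type and less RNA per cell cannot be told apart in any of these levels. Of 18 macrophage and monocyte markers 8 were tested, and 7 had an HPD estimate above 0, against 62.7% of all features. Their median was 0.25, or 0.14 with normexp background correction, 0.16 with quantile normalization and 0.12 when arrays were shifted by their median. For all features the median was 0.09, and -0.0013, 0.03 and -0.04 under these alternatives. MPEG1, a pore-forming protein of macrophages, was 1.09, 0.75 and 0.75 higher with HPD on days 3, 5 and 7, and CD68 was 0.76, 0.38 and 0.37 higher. The receptor gene CSF1R, on which macrophage survival depends, had -0.05, 0.19 and -0.07, the complement gene C1QA -0.28, 0.49 and -0.10, and CX3CR1 -0.34, -0.03 and -0.36. The macrophage markers thus differed among themselves in sign. Their summed level ran from 3.30 to 3.97 over the HPD arrays and from 2.96 to 3.62 over the control arrays. HPD minus control of that sum was 0.35, 0.65 and 0.08 on days 3, 5 and 7. The sum is weighted to bright markers such as MRC1 and CD68, which are also on the scavenger receptor list. The median of the markers' differences was 0.30, 0.29 and 0.10 on these days. From day 3 to day 7 all 8 had estimates below 0, with a median of -0.39, while 48.7% of all features had one above 0. No macrophage marker tested was near background on any array, and the part of macrophage number in the members' differences was not tested.

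The summed levels of neutrophil, platelet and adipocyte markers had HPD minus control differences of the same signs as CHIT1. For the 7 neutrophil markers tested, of 10 listed, HPD minus control of the sum was -1.47, 1.60 and 1.57 on days 3, 5 and 7. CHIT1 had -0.15, 1.45 and 1.19, and its day 3 value lies within its residual SD of 0.44. Single neutrophil markers did not all have these signs: CXCR2 had 0.31 on day 3, and CAMP had -0.07 on day 5. The neutrophil sum is weighted to the brightest markers, S100A8 and S100A9. Unlike the sum, MPO and CAMP were lowest on day 5 in both treatments. The summed level ran from 5.61 to 9.35 over the HPD arrays and from 4.04 to 10.5 over the control arrays. From day 3 to day 7 all 7 had estimates below 0, while 48.7% of all features had one above 0. Their median was -4.81, further than MARCO or CHIT1. CXCR2 (-0.45), MMP8 (-0.68) and MPO (-3.40) moved less than MARCO, and the other markers more. All 7 were well above background on all 6 arrays, and their part in the results for CHIT1 and MARCO was not tested.

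Osteoclast, red cell and platelet markers differed most on day 3. The summed level of 5 osteoclast markers differed by 1.24 between HPD and control on day 3, and by 0.02 and -0.11 on days 5 and 7. It ran from 6.66 to 6.95 over HPD arrays and from 5.42 to 7.06 over control arrays. Red cell markers (4 of 7 tested) stood at -1.78, 0.52 and -0.17, with sums from 3.49 to 6.13 over HPD arrays and from 4.99 to 5.61 over control arrays. Platelet markers (3 of 8) stood at -1.49, 0.57 and 0.21. Endothelial markers (5 of 8) stood at 0.31, -0.21 and -0.06, and adipocyte markers (2 of 6) at -0.34, 0.57 and 0.25. The part of these cells in the members' differences was not tested. The labelled tissue, bone, was checked with 10 osteoblast and bone genes. Of these 8 were tested, all well above background on all 6 arrays, with sums from 9.49 to 10.6 over HPD arrays and from 9.14 to 10.4 over control arrays, while BGLAP and ALPL were not found by name on the array.

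**Figure D5:**
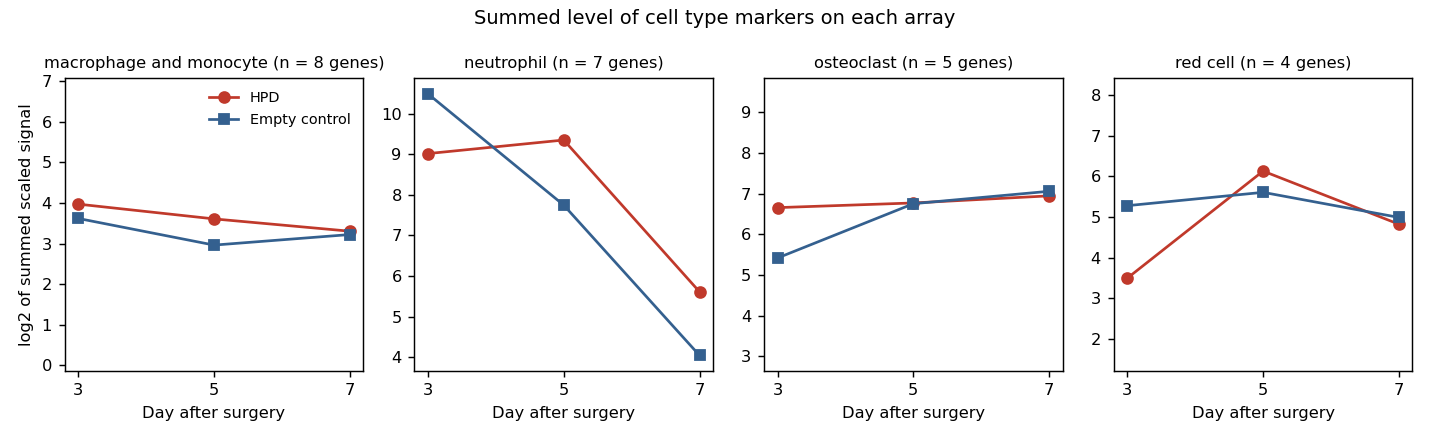
Log2 of the summed scaled signal of macrophage, neutrophil, osteoclast and red cell markers on each array against the day, with HPD as red circles and the empty control as blue squares, with the same span in every panel. The neutrophil sum is lowest on day 7 in both treatments and stands below control with HPD on day 3 alone, while the macrophage sum stays within 2.96 to 3.97.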

How the data were processed

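The deposited values are Cy3 spot intensity values on a linear scale, 45220 spots per array. Background subtraction and detrending were done by Agilent Feature Extraction 10.5.1.1 on a rabbit array designed on oryCun2, per the file headers. Per the labels' protocols, RNA was taken from newly formed tissue, while the series' design text also mentions blood. The labels do not say that arrays stand for separate animals, so p-values reflect only how these arrays vary, which may be technical. For arrays, their number limits the precision.

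From the deposited intensity, log2 values were computed here and shifted by each array's 75th percentile over the 43803 spots that are not controls. Outlier-marked spots were then left out, which removed 41 of the 43603 probes. Probe names came from the array's columns and, for symbols alone, from RefSeq genes of the mOryCun1.1 assembly. This gave 1 symbol to 22676 probes and several to 146, and left 20927 without a single one. The brightest probe stood for a gene. The sequence and position of the CD14 probe are not reported here. Features that 3 or more of the 6 arrays measured well above background were tested with limma 3.58.1 (R 4.3.3, data.table, version 1.17.8). The model had terms for day and for treatment (2 residual and 2.46 prior degrees of freedom) and Benjamini-Hochberg adjustment at 0.05. The limma script was tested on simulated data. A residual SD is the moderated one of the limma fit, which combines the residual and prior degrees of freedom. The summed level of a list is log2 of its summed scaled signals. Summaries were made in Python 3.11.15 with numpy 2.4.6 and pandas 2.3.3, and figures with matplotlib 3.10.9.

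The members and lists were chosen with earlier results of these data known. Genes named beside the members are the 3 nearest in Pearson r over the 6 arrays, and at most 4 of each list per comparison by size of estimate. Exceptions are genes for which a role, or completing a count, is given as the reason. Listed genes too dim for a day difference are named without one. Nearest genes after removing day means were computed but are not listed, since only 3 independent differences underlie them. Cell type markers are given as values. Alternatives were normexp (offset 50), quantile and median scaling, other filters, outlier spots kept, the mean of all probes, other probes, models without day or treatment or with slide as the block, and leaving out each array or day.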

Additional observations from a re-analysis of the deposited data

Results flagged for a closer look

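For 3 of the 5 genes, single-day or single-treatment differences pointed in opposite directions. None of these contrasts between days or treatments was tested, because each value rests on 1 array per treatment and day. The residual SD set beside them comes in part from the same differences, so it does not judge them independently.

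CHIT1 had HPD minus control differences of -0.15 on day 3, 1.45 on day 5 and 1.19 on day 7. The day 3 difference was smaller than the residual SD of 0.44 and both later ones were larger.

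MARCO had differences of -0.000132 on day 3, 1.05 on day 5 and 0.10 on day 7. The day 3 and day 7 values are both within the residual SD of 0.32.

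MSR1 differed between days 5 and 7 by -0.84 in HPD tissue and by 0.31 in control tissue. The control value lies within the residual SD of 0.32 and the HPD value does not.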

How the results depend on the processing

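For the HPD effect, limma called 0 features under all 18 alternatives run, and 0 of the 5 genes passed. All 93 alternative estimates of the 5 genes stayed above 0. Many of them could not differ from the main one: changing the filter, leaving out day or blocking on slide left each estimate as it was. Leaving out arrays or days gave 0.77 to 1.34 for MSR1, 0.65 to 0.83 for CD36, 0.05 to 0.57 for MARCO, 0.61 to 0.90 for CD14 and 0.52 to 1.32 for CHIT1. For the HPD effect, leaving out 1 array gives the same value as leaving out its day. For day 7 minus day 3, where 1 feature was called, normexp background correction called 932, leaving out the treatment term 378, the filter on all 6 arrays 5, and quantile normalization and no filter 0 each. Leaving out 1 array gave 0 to 239, the 239 without the HPD array of day 3. All 73 alternative estimates of the 5 genes stayed below 0, though changing the filter or leaving out the treatment term could not move them. Under normexp MARCO (-2.82), CHIT1 (-2.18) and CD36 (-0.89) passed, without the treatment term MARCO (-3.62), and without the HPD array of day 3 CHIT1 (-3.47). Day 5 minus day 3 of MARCO passed under normexp (-1.77, adjusted p = 0.0343). Leaving out 1 array gave -3.91 to -3.34 for MARCO, -3.47 to -2.00 for CHIT1, -1.41 to -0.45 for MSR1, -1.04 to -0.73 for CD14 and -0.88 to -0.52 for CD36. Day 7 minus day 5 of MSR1 turned to 0.11 without the HPD array of day 5 and to 0.21 without that of day 7, and leaving out 1 array gave -0.74 to 0.21. The cause was not tested. Shifting by the median put MSR1 on day 3 (0.98) and MARCO on day 5 (0.93) just under 2-fold. MARCO on day 5 was also under it with quantile normalization (0.99) and normexp (0.79), as was CHIT1 on day 7 with normexp (0.79), which left 0 of 5 genes at 2-fold on that day. Within the second slide the HPD differences are those of days 5 and 7, and with slide as the block the estimates were the same. With 2 residual degrees of freedom, the number of arrays limits every test here.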
